A study of Mus musculus with 12 samples.

Results

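Hippocampal cells of mice given cisplatin were compared with those of mice given phosphate-buffered saline (PBS), in the part of the study in which every mouse was also exposed to 40 Hz stimulation. The libraries were chosen by their titles, 3 Cisplatin stim and 3 PBS stim, which are 6 of the 12 single-cell RNA-seq libraries of the series and hold 8096 of its 19834 cells. Both groups were 9-week-old female C57/BL6J mice whose stimulation, a 40 Hz flicker of light with pulses of sound, began with the first injection. It was given for 1 h a day over 21 days, and hippocampi were taken on day 22. By the series' design text replicate 1 came from both hippocampi of 1 animal and replicates 2 and 3 each pooled 4 hippocampi of 2 animals, whereas the protocol attached to every library speaks of 4 hippocampi. A library is thus the unit of replication, may mix 2 mice, and p-values measure the spread between libraries. The labels used here state no cisplatin dose. The other 6 libraries, PBS nonstim and Cisplatin nonstim, came from mice treated alike but without stimulation. They enter here to estimate the spread and to set the drug difference with stimulation against that without it.

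Cisplatin is a platinum compound that crosslinks the bases of DNA. Cells that sense such damage stabilise the transcription factor p53, which induces Cdkn1a (the cell cycle inhibitor p21), Phlda3, Bbc3 and other targets. Oligodendrocytes make the myelin sheaths of axons, from galactolipids, cholesterol and proteins, and are kept up by a pool of oligodendrocyte precursor cells (OPCs). The glucocorticoid receptor, which binds the adrenal stress hormone, induces genes such as Fkbp5, Tsc22d3, Sgk1, Per1 and the metallothioneins in many brain cell types.

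The 6 libraries held 611, 1677 and 2580 cells (PBS stim 1, 2 and 3) and 1105, 992 and 1131 cells (Cisplatin stim 1, 2 and 3). They had 3964338 to 11393458 unique molecular identifiers (UMIs, each counting 1 captured transcript) per PBS stim library and 6037875 to 8219853 per Cisplatin stim library. Of their barcodes 15 occurred in more than 1 of the 6 libraries, which left 8081 distinct ones. The replicate 1 libraries differed from the others in the prefix of the library name and in the animals pooled, and are called the first batch here. Their median share of mitochondrially encoded UMIs was 12% and 17.6%, against 3.19% to 5.12% in the second batch. The second-batch PBS libraries stood apart in another respect. Transcripts that align to ribosomal RNA repeats (Gm42418, AY036118 and Lars2) took 3.59% and 1.87% of UMIs in PBS stim 2 and 3. They took 2.40% and 3.65% in PBS nonstim 2 and 3, and 0.34% to 0.782% in the other 8 libraries. That share moved with the drug label within the second batch, so results below are also given with it as a covariate of the fit and without those 4 PBS libraries. Leaving them out leaves PBS stim with its replicate 1 alone, whose spread is then assumed to equal that of the other groups. The authors' 12 cell types were used as deposited.

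Progenitor cells and microglia made up a smaller share of the cells in Cisplatin stim. Progenitor cells, the dividing and newly formed neurons marked by Dcx and Sox11, numbered 7, 28 and 37 in the PBS stim libraries and 3, 1 and 6 in the Cisplatin stim libraries. They were 1.42% ± 0.262 (SD, n = 3) of PBS stim cells and 0.301% ± 0.216 (SD, n = 3) of Cisplatin stim cells, a log2 ratio of −2.22 ± 0.49 (SE; edgeR on cell numbers, adjusted p = 0.00936 over 11 types). All 3 Cisplatin stim shares lay under all 3 PBS stim shares. An exact permutation (both sides) within batches gave p = 0.1667, the smallest that its 12 arrangements allow. Microglia, the resident macrophages of the brain, were 19.1%, 28.4% and 27.3% of PBS stim cells and 10.9%, 16.3% and 19.7% of Cisplatin stim cells, a log2 ratio of −0.68 ± 0.21 (adjusted p = 0.0448, exact permutation p = 0.1667). Here the groups overlapped, since the PBS stim 1 share of 19.1% fell below that of Cisplatin stim 3, while within each batch every Cisplatin stim value was below every PBS stim value. Without stimulation the mean shares were 1.57% with PBS and 0.414% with cisplatin for progenitors and 25.9% and 19.8% for microglia.

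The other 9 types with a test passed no threshold. Pericytes were 1.38% ± 0.542 of PBS stim and 2.49% ± 1.15 of Cisplatin stim cells (SD, n = 3; log2 ratio 0.78 ± 0.37, adjusted p = 0.212). OPCs were 5.39% ± 2.35 and 3.43% ± 1.06 (−0.60 ± 0.37, adjusted p = 0.365). Choroid plexus cells, the secretory epithelium of the ventricle, ranged from 2.95% to 24.1% of PBS stim and from 7.96% to 29.7% of Cisplatin stim cells (adjusted p = 0.617). The progenitor call ended without Cisplatin stim 1 (adjusted p = 0.0558) or Cisplatin stim 2 (0.0507). With the second-batch libraries alone the progenitor log2 ratio was −2.22 (adjusted p = 0.0679). The microglial call ended without any one of the other 5 libraries than Cisplatin stim 3 (adjusted p 0.108 to 0.193), in the second batch alone (0.23) and as a share of cells other than choroid plexus (log2 ratio −0.61, adjusted p = 0.0775). A share depends on how many cells of every other type were recovered, and fewer cells of a type in the tissue and fewer released by dissociation cannot be told apart here.

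**Figure D1:**
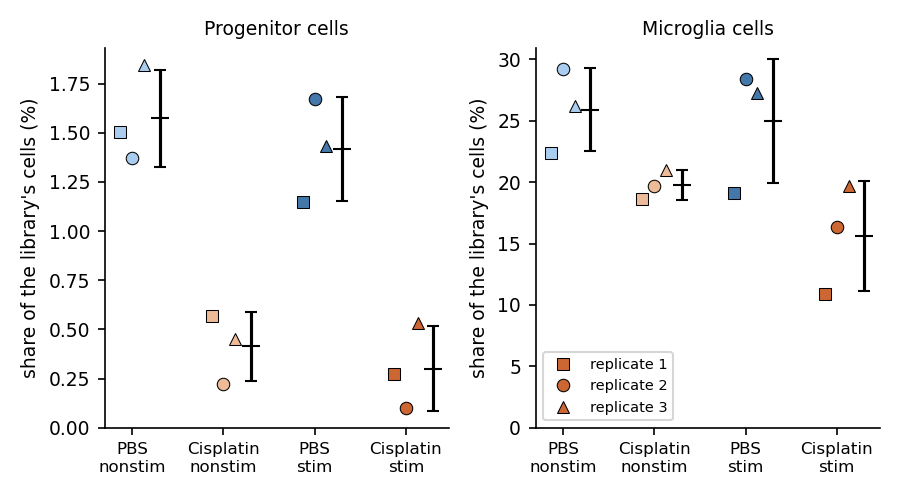
Share of each library's cells (percent) that the authors typed as progenitors (left) or microglia (right), by group, with the 4 groups on the x axis; symbols mark the replicate number and bars the mean ± SD of 3 libraries. Progenitor shares of the 3 Cisplatin stim libraries (0.101% to 0.531%) lie below those of the 3 PBS stim libraries (1.15% to 1.67%), and the microglial shares are lower within each batch.

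Gene expression was then compared in the 9 cell types with at least 10 cells in enough libraries, on counts summed per library and type. A gene is called where the adjusted p of edgeR's quasi-likelihood test over all genes of the type was under 0.05. Over the 9 types 2703 of 69488 gene tests were called (3.89%), 1502 higher (2.16%) and 1201 lower (1.73%) in Cisplatin stim. In 18.7% of all tests the libraries of one group lay all above or all below those of the other, a share of 27.6% in oligodendrocytes, 18.0% in microglia, 14.4% in astrocytes, 17.0% in endothelium, 19.3% in neurons, 13.7% in OPCs, 27.9% in pericytes, 15.2% in the choroid plexus and 9.06% in immune cells. For PBS stim the pericyte share rests on PBS stim 2 and 3 alone. Fewer libraries separate more easily, so it cannot be set beside the other shares. Among the 2703 called tests the groups did not overlap in 2320, among them 1304 of 1466 in oligodendrocytes and 226 of 264 in astrocytes. Genes called on these same values tend to separate. A lack of overlap in a called gene below thus describes its values and adds no support to the call. Oligodendrocytes, with 156, 314 and 518 cells in PBS stim and 304, 210 and 245 in Cisplatin stim, had the most: 710 genes were higher and 756 lower of 10094 tested (14.5%). Microglia followed with 313 higher and 206 lower of 9903 (5.24%), then astrocytes with 140 and 124 of 10163 (2.6%), endothelial cells with 138 and 68 of 8145 (2.53%) and neurons with 129 and 20 of 6561 (2.27%). OPCs had 38 and 17 called of 7684 (0.716%), pericytes 22 and 8 of 6591 (0.455%), choroid plexus cells 12 and 2 of 7952 (0.176%), and immune cells, a set of 14 to 68 cells per library, 0 of 2395 (0.0%). In immune cells 201 genes had an unadjusted p under 0.05 and DESeq2 called 12. Cell numbers differed between types, and their part in these counts was not tested. The counts therefore do not rank the size of the response.

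**Figure D2:**
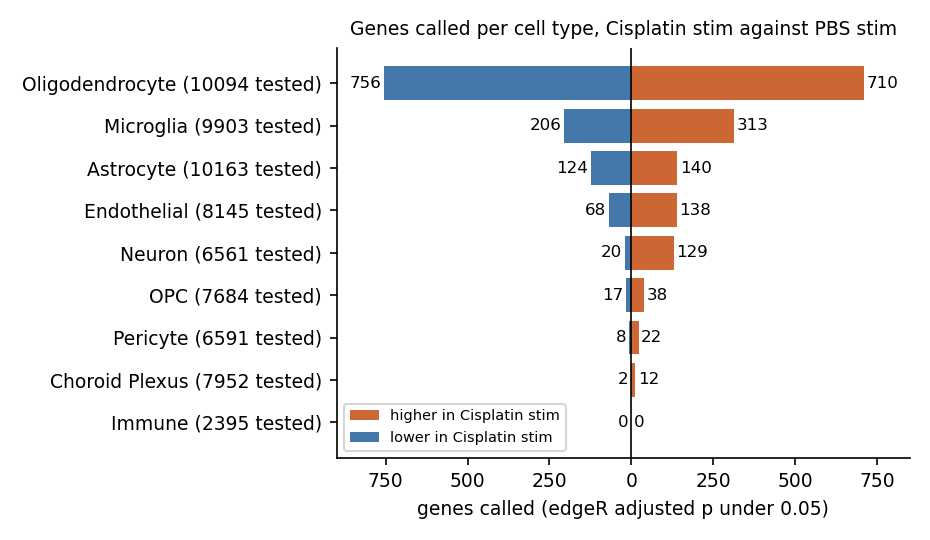
Number of genes called per cell type (x axis; edgeR adjusted p under 0.05), with genes higher in Cisplatin stim to the right and genes lower to the left of 0. Oligodendrocytes had 710 and 756 calls, microglia 313 and 206, and no immune gene was called by edgeR.

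The 2 batches gave separate readings. Of the genes called in the 8 second-batch libraries alone, 2615 of 3348 (78.1%) outside the choroid plexus had the same sign in the single pair of first-batch libraries, which took no part in that call. The share was 81.2% in oligodendrocytes (1313 of 1618) and 73.8% in microglia (515 of 698). In the choroid plexus it was 28.6% (661 of 2315), where PBS stim 1 supplied only 18 cells. Leaving out the 4 second-batch PBS libraries, 615 genes were called in place of 2703, and with the ribosomal RNA-like share as a covariate 856. In oligodendrocytes the counts were 299 and 661, in microglia 15 and 38.

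In oligodendrocytes the gene called most strongly among the p53 targets was Cdkn1a (chromosome 17, 29090976 to 29100727 of the mouse build GRCm38.p6, RefSeq). It stood at 1.07, 3.84 and 2.67 CPM (counts scaled to library size with edgeR's TMM factors) in PBS stim 1, 2 and 3 and at 962, 263 and 242 CPM in Cisplatin stim 1, 2 and 3, the order in which values are given throughout. It was near absent from each PBS stim library and highest in Cisplatin stim 1, and the groups did not overlap (log2 fold change 6.93 ± 0.48 SE, adjusted p = 1.36e-08). Bbc3, which encodes the pro-apoptotic protein PUMA, rose from 9.64, 5.23 and 6.47 to 28.7, 20.7 and 14.1 CPM. Zfp365 rose from 62.1, 80.9 and 81.1 to 140.5, 115 and 116 CPM, and Sesn1, a stress-induced inhibitor of mTORC1, by 0.68 on the log2 scale. These were the 4 of 22 tested p53 targets that rose, and none fell, where 7.03% of all genes tested in oligodendrocytes rose and 7.49% fell. The median of the list was 0.14 against 0.01 for all genes. The target Phlda3 (265, 245 and 249 against 222, 231 and 208 CPM, adjusted p = 0.19) passed no threshold. Of 31 tested DNA repair genes 1 was called, Xpa, a damage recognition factor of nucleotide excision repair, which was 0.63 higher on the log2 scale (adjusted p = 0.00904). The call of Sesn1 ended without PBS stim 2 or Cisplatin stim 3 (adjusted p 0.0737 to 0.0807). Sesn1 and Xpa were not called with the ribosomal RNA-like covariate (adjusted p 0.0815 to 0.0829). Bbc3 and Sesn1 were not called without the 4 PBS libraries (adjusted p 0.167 to 0.398).

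Of genes induced by glucocorticoids 15 of the 20 tested members rose and 0 fell, with a median log2 fold change of 1.81. The shares over all genes tested in oligodendrocytes were 7.03% higher and 7.49% lower. Cdkn1a belongs to this list as well as to the p53 targets. Plin4, a perilipin that coats lipid droplets (chromosome 17, 56100591 to 56109803), lay at 5.36, 4.54 and 4.57 CPM in PBS stim and at 172, 98.7 and 84.3 CPM in Cisplatin stim, and every Cisplatin stim value was over every PBS stim value (log2 4.46 ± 0.27, adjusted p = 3.22e-09). Fkbp5, the co-chaperone that dampens the receptor, rose from 4.29, 13.6 and 8.76 to 71, 81.5 and 72.5 CPM (log2 3.04 ± 0.33, adjusted p = 3.56e-06). Arrdc2 moved from 30, 35.2 and 36.6 to 176, 160.1 and 167 CPM, and Zbtb16, a zinc finger repressor, from 21.4, 15 and 13.7 to 162, 66.2 and 54.4 CPM, again without overlap. Mt1 and Mt2, metallothioneins that bind zinc and other metals, rose as well, Mt1 from 598, 1042 and 800.5 to 3736, 1919 and 2135 CPM and Mt2 from 28.9, 58.3 and 42.3 to 366, 113 and 139.6 CPM. Both were highest in Cisplatin stim 1. Sgk1, a kinase of ion transport, was 194, 732 and 759 against 1521, 2182 and 1931 CPM, with the lowest value in PBS stim 1 (log2 1.92 ± 0.31, adjusted p = 2.60e-04).

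A pair of the list was all but silent in PBS stim oligodendrocytes. Hif3a, an inhibitory hypoxia-inducible factor subunit, had 3 UMIs over the PBS stim libraries and 145 over the Cisplatin stim libraries, a ratio of 52.8 per UMI (95% exact interval 17.7 to 259, counting error only). Sult1a1, a sulfotransferase, had 2 and 162 UMIs (88.4, 24.1 to 736). Klf9, Ddit4, Nfkbia and Per1 rose by 1.13, 1.28, 0.93 and 1.14 on the log2 scale (adjusted p at most 6.63e-04). The list's count stayed at 15 with the ribosomal RNA-like share as a covariate, was 14 without the 4 PBS libraries and 17 in the second batch alone, and lay between 15 and 17 whichever of the 6 libraries was left out. Per1 also belongs to the circadian clock list, of which 5 of 17 tested members rose and 0 fell. That is 29.4% called, against 14.5% of all genes tested in oligodendrocytes (7.03% higher and 7.49% lower). Ciart, a repressor of the clock, stood at 5.36, 4.19 and 4.95 CPM and then 15.6, 10.6 and 16.8 CPM, and Hlf, a clock output factor, at 5.36, 2.09 and 1.14 against 9.57, 7.68 and 5.89 CPM. The clock count was 8 without Cisplatin stim 1, 2 without Cisplatin stim 2, 2 without Cisplatin stim 3, 3 without PBS stim 2 and 3 without PBS stim 3, and 1 with the covariate or without the 4 PBS libraries.

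The start-site windows of 4 members of these lists are shown because they hold the letters that the receptor or the clock factors are known to bind. Each is the 300-base RefSeq window (250 bases before the start to 50 after, GRCm38.p6), 5′ to 3′ on the gene's strand, in lower case with the motif in capitals. The motif ACANNNTGT, a core of the glucocorticoid response element, lies in the windows of Mt1 (chr8:94178839-94179138, plus strand) and Sgk1 (chr10:21993640-21993939, plus strand, 1 of its windows), and the E-box CACGTG, bound by CLOCK and BMAL1, in those of Per1 (chr11:69098699-69098998, plus strand) and Ciart (chr3:95882179-95882478, minus strand, 3 matches). The Sgk1 window also holds CACGTG near its 5′ end, left in lower case because only the receptor motif is marked there.
Mt1: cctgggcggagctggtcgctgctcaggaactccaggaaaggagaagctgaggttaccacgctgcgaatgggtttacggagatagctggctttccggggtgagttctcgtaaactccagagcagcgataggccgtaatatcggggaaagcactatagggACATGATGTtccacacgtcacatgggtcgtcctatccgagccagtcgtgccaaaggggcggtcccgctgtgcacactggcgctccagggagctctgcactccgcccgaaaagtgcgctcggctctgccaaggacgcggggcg
Sgk1: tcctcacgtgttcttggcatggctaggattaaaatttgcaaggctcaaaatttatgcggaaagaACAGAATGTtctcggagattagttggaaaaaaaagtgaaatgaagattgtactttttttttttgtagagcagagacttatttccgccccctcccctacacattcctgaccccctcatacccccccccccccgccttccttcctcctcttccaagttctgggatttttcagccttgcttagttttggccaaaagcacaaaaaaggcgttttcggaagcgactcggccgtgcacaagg
Per1: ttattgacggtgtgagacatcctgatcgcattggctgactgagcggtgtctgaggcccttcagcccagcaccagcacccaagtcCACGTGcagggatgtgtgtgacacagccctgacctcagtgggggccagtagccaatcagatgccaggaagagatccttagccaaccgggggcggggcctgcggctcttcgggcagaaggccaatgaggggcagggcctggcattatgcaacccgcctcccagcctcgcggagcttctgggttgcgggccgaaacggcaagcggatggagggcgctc
Ciart: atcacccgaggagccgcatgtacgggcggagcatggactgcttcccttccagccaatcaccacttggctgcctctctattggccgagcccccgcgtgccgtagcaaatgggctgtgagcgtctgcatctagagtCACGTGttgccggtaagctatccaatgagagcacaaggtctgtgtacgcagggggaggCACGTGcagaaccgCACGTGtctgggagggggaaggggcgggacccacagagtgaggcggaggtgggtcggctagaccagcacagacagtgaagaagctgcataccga
Of the 18 glucocorticoid list genes with a window 2 held ACANNNTGT (11.1%), against 7.9% of 27025 genes, and of 17 clock genes 5 held CACGTG (29.4%), against 8.09%. These 5 were Bhlhe41, Ciart, Cry1, Per1 and Tef. Bhlhe41 and Tef were not called in oligodendrocytes, and Hlf and Nr1d1, which rose, were not among the 5. The clock share thus describes the list and not the genes that rose. Both motifs read the same on either strand and were searched as written. A match in a window is a description of its letters and shows no binding, and elements outside the window were not searched.

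The other strongest calls were of mixed function. Cxcl12, a chemokine that guides OPCs and immune cells (chromosome 6, 117168535 to 117181367), went from 1.07, 3.14 and 6.86 CPM in PBS stim to 133, 133 and 137 CPM in Cisplatin stim (log2 4.95 ± 0.33, adjusted p = 6.16e-09), and the 3 Cisplatin stim values were nearly equal. Itgad, an integrin alpha chain (chromosome 7, 128154376 to 128223816), went from 11.8, 15 and 18.7 to 173, 176 and 165 CPM. Of its 31-base words 17.5% occur in other genes, which leaves part of its counts uncertain. Scrg1 went from 8.57, 2.44 and 3.43 to 87.6, 49.6 and 41.7 CPM. The groups did not overlap in any of these genes. Among the genes that fell, Itih3, an inter-alpha-trypsin inhibitor chain, stood at 78.2, 62.8 and 57.9 CPM in PBS stim and 16.6, 19.5 and 15.9 CPM in Cisplatin stim (log2 −1.92 ± 0.16, adjusted p = 1.22e-07). Shtn1, an actin-linked guidance protein, was at 182, 201 and 244 against 45.3, 73.2 and 87.9 CPM, and Phyhipl at 232, 327 and 315 against 101, 178 and 178 CPM.

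**Figure D3:**
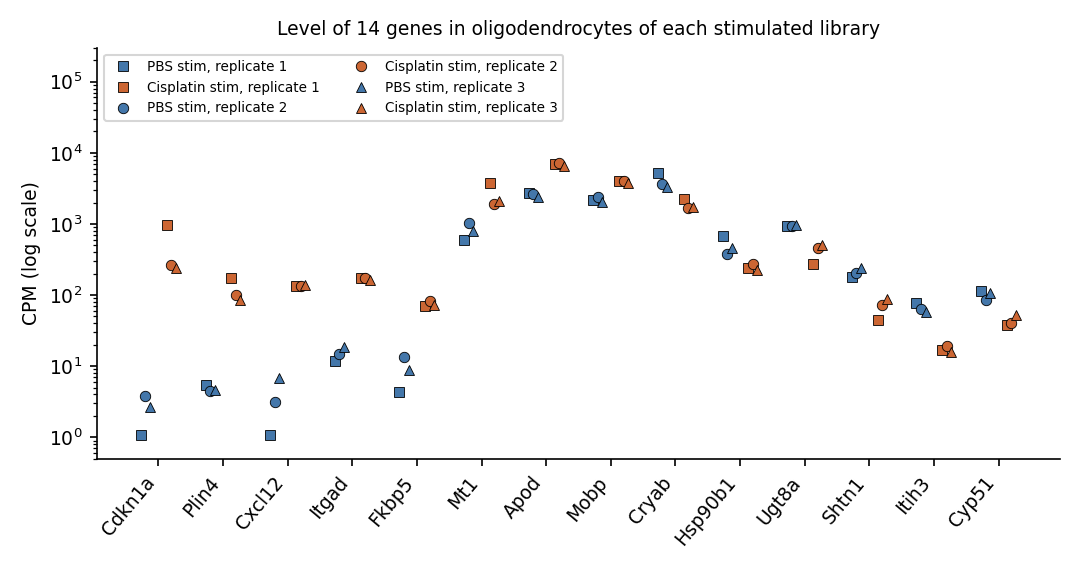
CPM (log y axis) of 14 genes in oligodendrocytes of each stimulated library; blue is PBS stim, orange Cisplatin stim, and squares, circles and triangles are replicates 1, 2 and 3. The 2 groups do not overlap in any of the 14 genes: from Cdkn1a to Mobp the 3 Cisplatin stim values lie above the 3 PBS stim values, and from Cryab to Cyp51 below them.

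Myelin genes moved in both directions: of 30 tested members 5 rose and 13 fell, with a median log2 fold change of −0.23. Over all genes tested in oligodendrocytes 7.03% rose and 7.49% fell. Ugt8a, which makes the galactolipids of myelin (chromosome 3, 125865271 to 125938619), fell from 946, 926 and 982 to 275, 452 and 511 CPM (log2 −1.21 ± 0.16, adjusted p = 2.85e-05). Opalin and Ermn, markers of mature myelinating cells, fell by 0.90 and 0.53 on the log2 scale. In Opalin the value of Cisplatin stim 1 (276 CPM) was far under those of Cisplatin stim 2 and 3 (942 and 985 CPM). In the other direction Mobp rose from 2175, 2354 and 2002 to 3959, 4008 and 3805 CPM, and Apod, a lipid-binding lipocalin, from 2700, 2661 and 2425 to 6927, 7282 and 6447 CPM (adjusted p = 3.68e-08). Mbp (5881, 4732 and 4656 against 6798, 5931 and 5612 CPM, adjusted p = 0.0637) and Mog (adjusted p = 0.37) were not called. Il33, an alarmin stored in oligodendrocyte nuclei, fell from 682, 779 and 739 to 289, 467 and 508 CPM. The list gave 4 up and 13 down with the covariate, 2 and 10 without the 4 PBS libraries and 7 and 12 in the second batch alone. The authors' cluster 11 of oligodendrocytes held 50 and 96 cells of the 2 first-batch libraries and 0 or 1 in the others, and its part in these values was not tested.

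Chaperones were lower. Of 21 tested heat shock and chaperone genes 0 rose and 9 fell (median −0.57), against 7.03% and 7.49% of all genes tested in oligodendrocytes. Cryab, a small heat shock protein abundant in myelinating cells, stood at 5236, 3638 and 3353 CPM in PBS stim and 2262, 1668 and 1703 CPM in Cisplatin stim (log2 −1.11 ± 0.10, adjusted p = 6.08e-07). Hsp90b1, the chaperone of the endoplasmic reticulum, was at 669.7, 384 and 460.4 against 238, 272 and 227 CPM. St13 was at 352, 379 and 343 against 226, 240.4 and 209 CPM, and Chordc1, an HSP90 co-chaperone, at 68.6, 69.8 and 60.5 against 36.3, 31.3 and 35.4 CPM. In these 4 genes each Cisplatin stim library was under each PBS stim library. Dnaja1 fell by 0.49 and Hspa8, the constitutive HSC70, by 0.33 on the log2 scale. Hspa8 shares 43.6% of its 31-base words with other genes. The list counted 7 falls with the covariate, 6 without the 4 PBS libraries and 9 in the second batch alone. The call of Dnaja1 ended without PBS stim 2, PBS stim 3, Cisplatin stim 2 or Cisplatin stim 3 (adjusted p 0.0508 to 0.0672), that of Hspa8 without PBS stim 1, PBS stim 2, Cisplatin stim 1 or Cisplatin stim 3 (adjusted p 0.0615 to 0.175). Dnaja1 and Hspa8 were not called with the ribosomal RNA-like covariate (adjusted p 0.0647 to 0.466). Chordc1, Dnaja1 and Hspa8 were not called without the 4 PBS libraries (adjusted p 0.0549 to 0.576).

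The windows of Chordc1 (chr9:18292017-18292316, plus strand) and Dnaja1 (chr4:40722218-40722517, plus strand) are shown since they are the members among the 9 genes that fell whose windows hold GAANNTTC, a core of the heat shock element, marked in capitals.
Chordc1: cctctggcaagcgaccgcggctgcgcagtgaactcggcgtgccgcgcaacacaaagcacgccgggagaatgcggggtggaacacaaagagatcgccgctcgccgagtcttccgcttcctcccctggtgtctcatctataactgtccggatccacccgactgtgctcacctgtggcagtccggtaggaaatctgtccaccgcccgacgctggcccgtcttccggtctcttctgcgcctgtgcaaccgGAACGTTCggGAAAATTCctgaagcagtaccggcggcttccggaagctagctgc
Dnaja1: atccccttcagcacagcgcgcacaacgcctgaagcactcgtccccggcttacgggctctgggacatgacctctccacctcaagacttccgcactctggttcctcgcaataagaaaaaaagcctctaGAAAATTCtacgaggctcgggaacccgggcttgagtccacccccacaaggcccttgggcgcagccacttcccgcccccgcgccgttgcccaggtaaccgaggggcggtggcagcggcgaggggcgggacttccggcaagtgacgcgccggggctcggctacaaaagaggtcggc
Chordc1 has 2 matches beside its start and Dnaja1 has 1. Over the list 10 of 17 genes with a window held the motif (58.8%), against 9.04% of 27025 genes. Apart from Chordc1 and Dnaja1 these were Bag3, Hspa1a, Hspa1b, Hspb1, Hspb8, Hspd1, Hspe1 and Hsph1, none of which was called lower in oligodendrocytes. The share thus describes the list and not the genes that fell. This motif too reads the same on both strands.

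Cholesterol synthesis genes, which oligodendrocytes need for myelin, were lower in 7 and higher in 2 of 30 tested members (median −0.27). Beside each count of this paragraph stand the 7.03% of all genes tested in oligodendrocytes that rose and the 7.49% that fell. Cyp51 stood at 112, 86.5 and 108 CPM in PBS stim and 37.8, 40.8 and 53.03 CPM in Cisplatin stim. Idi1 was at 78.2, 96.3 and 93.7 against 36.8, 63.2 and 51.2 CPM, and Hmgcs1, which makes the precursor HMG-CoA, at 254, 272 and 286 against 142, 168 and 138 CPM. Insig1, which holds back the activation of the SREBP factors, rose from 112, 106 and 102 to 169, 259 and 254 CPM. No library overlapped between groups in these 4 genes. The falls numbered 4 without Cisplatin stim 1 and 4 without PBS stim 1. With the covariate the list had 2 up and 3 down, and without the 4 PBS libraries 1 up and 0 down. Nuclear genes of oxidative phosphorylation rose in 15 of 49 and fell in 0, by small amounts: Ndufv1 went from 90.01, 95.2 and 88.7 to 142, 142 and 146 CPM and Cox5b from 347, 439 and 414 to 534, 603 and 582 CPM (median of the list 0.23). That count was 8 with the covariate, 6 without PBS stim 3 and 0 without the 4 PBS libraries. In the glutathione and Nrf2 list 5 of 22 rose (3 without Cisplatin stim 3 and 3 without PBS stim 3) and 2 fell. Gstm1, which conjugates glutathione, rose from 81.4, 71.2 and 93.3 to 152, 255 and 242 CPM, and Cat, catalase, fell from 62.1, 62.1 and 60.2 to 34.7, 29.5 and 41.2 CPM. Irs2, an adaptor of insulin receptors, fell from 126, 128 and 117 to 60.9, 69.1 and 71.2 CPM, and Slc16a1, the lactate transporter MCT1, from 80.4, 98.04 and 92.9 to 39.3, 54.9 and 60.3 CPM. Hmgcs1 was not called with the ribosomal RNA-like covariate (adjusted p 0.0765). Cyp51, Idi1, Hmgcs1, Insig1, Ndufv1, Cox5b, Cat, Irs2 and Slc16a1 were not called without the 4 PBS libraries (adjusted p 0.0589 to 0.446).

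Markers of other types were low in oligodendrocytes but not constant. The summed 8 astrocyte markers lay between 221 and 419 CPM in PBS stim and between 264 and 518 CPM in Cisplatin stim, with 1 of 8 called (Aldoc, 80.4, 22.3 and 27.04 against 144, 76.2 and 53.5 CPM). The 8 progenitor markers summed to 43.4 to 75.8 CPM in PBS stim and 189.1 to 309 CPM in Cisplatin stim, where 1 of the 3 tested, the tubulin Tubb3, was called, and their part in the results was not tested. The 8 oligodendrocyte markers themselves summed to 52510 to 61470 CPM in PBS stim and 42490 to 48450 CPM in Cisplatin stim (sums in CPM without TMM factors).

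In microglia genes of the homeostatic state, the receptor and secreted products that mark resting microglia, were lower: 0 of 20 rose and 10 fell, where 3.16% of the genes tested in microglia rose and 2.08% fell (median −0.34). Fcrls, an Fc receptor-like protein (chromosome 3, 87250758 to 87263738), stood at 2177, 1624 and 1502 CPM in PBS stim and 889, 639.6 and 844 CPM in Cisplatin stim (log2 −1.14 ± 0.11, adjusted p = 2.79e-06). Cst3, the protease inhibitor cystatin C, fell from 59280, 49480 and 43140 to 28450, 23450 and 31960 CPM, and Olfml3 from 1402, 1050 and 998 to 652, 538 and 717 CPM, and in the 3 genes no Cisplatin stim library reached a PBS stim library. Cx3cr1, the fractalkine receptor, fell by 0.38 (adjusted p = 0.0273) and Trem2 by 0.33 (adjusted p = 0.0478) on the log2 scale. P2ry12 (2132, 2434 and 2399 against 1022, 1910 and 2310 CPM, adjusted p = 0.0596) and Tmem119 (adjusted p = 0.341) were not called. The list counted 3 falls with the covariate, 3 without the 4 PBS libraries and 4 in the second batch alone, and 4 without PBS stim 1, PBS stim 2, Cisplatin stim 1 or Cisplatin stim 2. The call of Cx3cr1 ended without PBS stim 1, PBS stim 2, PBS stim 3, Cisplatin stim 1 or Cisplatin stim 2 (adjusted p 0.0617 to 0.122), that of Trem2 without PBS stim 1, PBS stim 2, PBS stim 3, Cisplatin stim 1 or Cisplatin stim 2 (adjusted p 0.0767 to 0.227). Cx3cr1 and Trem2 were not called with the ribosomal RNA-like covariate (adjusted p 0.254 to 0.483). Cx3cr1 and Trem2 were not called without the 4 PBS libraries (adjusted p 0.295 to 0.573).

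Among the strongest microglial calls Ddit4, a stress-induced inhibitor of mTORC1 (chromosome 10, 59949669 to 59951834), rose from 12.2, 38.1 and 43.5 to 85.5, 198 and 216 CPM (log2 2.41 ± 0.22, adjusted p = 1.6e-06). The AP-1 repressor Jdp2 rose from 10.9, 10.7 and 11.7 to 72.2, 46.95 and 45.2 CPM. Alox5, 5-lipoxygenase, rose from 12.2, 12.4 and 15.9 to 43.7, 51.6 and 44.7 CPM and Lsp1, a leukocyte actin-binding protein, from 38.03, 45.3 and 54.6 to 104, 167 and 125 CPM. Lst1 fell from 198, 232 and 197 to 36.1, 64.7 and 108 CPM. The groups did not overlap in these 5 genes. Of 16 tested glucocorticoid-induced genes 6 rose and 1 fell, against 3.16% and 2.08% of all genes tested in microglia. Fkbp5 went from 46.2, 112 and 112 to 133, 291 and 249 CPM, lowest in the first-batch library of each group. Sgk1 fell from 1161, 1124 and 907 to 674, 453 and 677 CPM, against the direction it took in oligodendrocytes (a difference between types that was not tested). The list's count was 1 up and 0 down with the covariate, and 0 and 0 without the 4 PBS libraries. Ddit4, Fkbp5 and Sgk1 were not called with the ribosomal RNA-like covariate (adjusted p 0.061 to 0.154). Ddit4, Alox5, Lsp1, Fkbp5 and Sgk1 were not called without the 4 PBS libraries (adjusted p 0.0684 to 0.27).

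Apoe, the lipid carrier that rises in disease-associated microglia, went from 804, 907 and 511 CPM in PBS stim to 2566, 1569 and 1847 CPM in Cisplatin stim (log2 1.42 ± 0.22, adjusted p = 4.84e-04), and Fth1, ferritin heavy chain, rose by 0.58. Neither rise was particular to microglia. Apoe was also called higher in neurons, OPCs and pericytes, and Fth1 in endothelium, neurons and oligodendrocytes. Of the 22 tested members of the disease-associated list 2 rose and 1 (Trem2) fell. Among 19 inflammatory cytokines 3 rose and 0 fell. Beside each count of this paragraph stand the 3.16% of all genes tested in microglia that rose and the 2.08% that fell. The counts of these 2 lists are small and are not read as a result about the lists. Cxcl2 stood at 116, 33.2 and 40.4 against 379.9, 53.9 and 81.8 CPM, Tnf at 687, 272 and 237 against 1639, 507 and 324 CPM and Il6 at 8.15, 9.53 and 8.29 against 20.9, 31.6 and 19.4 CPM. Within each group Cxcl2 and Tnf were higher in the first-batch library than in the others, so the groups overlapped across batches. Il1b (316, 146 and 86.4 against 419.8, 191 and 167 CPM, adjusted p = 0.173) was not called. Immediate early genes, which respond within minutes to stimuli and to dissociation, rose in 2 and fell in 6 of 23. Atf3 fell from 2450, 2757 and 2052 to 1438, 1288 and 1422 CPM, Egr3 by 1.01 and Fos by 0.44 on the log2 scale, and Ier2 rose by 0.53. The number that fell was 1 without Cisplatin stim 1, 2 without Cisplatin stim 2, 2 without PBS stim 1, 1 without PBS stim 2 and 3 without PBS stim 3, and with the covariate or without the 4 PBS libraries 0 of the 23 were called. The call of Fth1 ended without PBS stim 3, Cisplatin stim 1 or Cisplatin stim 2 (adjusted p 0.0569 to 0.0804), that of Tnf without PBS stim 2, PBS stim 3, Cisplatin stim 1 or Cisplatin stim 2 (adjusted p 0.0611 to 0.142), that of Il6 without Cisplatin stim 2 (adjusted p 0.0617). The call of Egr3 ended without PBS stim 1, PBS stim 2, Cisplatin stim 1 or Cisplatin stim 2 (adjusted p 0.0532 to 0.0804), that of Fos without PBS stim 1, PBS stim 2 or Cisplatin stim 1 (adjusted p 0.083 to 0.128), that of Ier2 without PBS stim 2, PBS stim 3 or Cisplatin stim 2 (adjusted p 0.0557 to 0.191). Fth1, Tnf, Il6, Atf3, Egr3, Fos and Ier2 were not called with the ribosomal RNA-like covariate (adjusted p 0.0613 to 0.436). Apoe, Fth1, Tnf, Il6, Atf3, Egr3, Fos and Ier2 were not called without the 4 PBS libraries (adjusted p 0.095 to 0.584).

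Larger blocks of genes moved together in microglia, where 3.16% of all genes tested rose and 2.08% fell. Replication-dependent histone transcripts, which lack a poly(A) tail when correctly processed, fell in 10 of 13 (median −1.48). Hist1h4d stood at 14.9, 184 and 132 CPM in PBS stim and 7.60, 40.8 and 57.03 CPM in Cisplatin stim. Hist1h4h, of whose 31-base words 50% occur elsewhere, was at 1.36, 49.9 and 52.9 against 1.90, 10.01 and 11.3 CPM. The PBS stim 1 value of both lay under the Cisplatin stim 2 and 3 values, so the groups overlapped and the difference stood within the second batch. The count was 5 without Cisplatin stim 2, 6 without PBS stim 3, 1 with the covariate and 0 without the 4 PBS libraries. Cytosolic ribosomal protein genes rose in 27 of 55 (median 0.35), for example Rpsa from 1233, 905 and 828 to 2029, 1775 and 1377 CPM and Rps19 from 1243, 1131 and 1023 to 1955, 1946 and 1510 CPM. Rpsa, like other genes of this family, shares words with processed copies (31%). The count was 17 without Cisplatin stim 1, 8 without Cisplatin stim 2, 15 without PBS stim 2 and 11 without PBS stim 3. With the covariate or without the 4 PBS libraries it was 0, with medians of 0.40 and 0.30. Of 13 mitochondrially encoded genes 8 rose and 1 fell: mt-Nd1 stood at 3587, 1573 and 1120 against 6624, 2789 and 2300 CPM and was higher in Cisplatin stim within each batch. The median share of mitochondrial UMIs per microglial cell was 5.97%, 1.95% and 1.55% in PBS stim and 15.3%, 3.49% and 2.7% in Cisplatin stim. Interferon-induced genes were not such a block, since they went both ways and rose in 2 and fell in 1 of 28. That is 10.7% called, against 5.24% of all genes tested in microglia. Gbp7, a guanylate-binding protein, rose from 50.2, 48.8 and 45.9 to 104, 118 and 110.3 CPM. Hist1h4h, Hist1h4d, Rpsa, Rps19 and Gbp7 were not called with the ribosomal RNA-like covariate (adjusted p 0.0524 to 0.763). Hist1h4h, Hist1h4d, Rpsa, Rps19, mt-Nd1 and Gbp7 were not called without the 4 PBS libraries (adjusted p 0.0681 to 0.876). The 8 oligodendrocyte markers summed to 787, 270.3 and 284 CPM in PBS stim microglia and to 1200, 349 and 359 CPM in Cisplatin stim microglia, with Mobp called, and their part in the result was not tested.

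Astrocytes, which supply and buffer neurons, had 1.38% of genes higher and 1.22% lower in Cisplatin stim. Etnppl, which breaks down phosphoethanolamine (chromosome 3, 130617448 to 130637521), rose from 82.4, 108 and 109 CPM in PBS stim to 597, 401 and 408 CPM in Cisplatin stim (log2 2.24 ± 0.20, adjusted p = 7.46e-08). Kcnt1, a sodium-activated potassium channel, rose from 29.8, 17.3 and 21.9 to 201, 78.9 and 67.97 CPM and Phyhd1, which shares 43.5% of its words with other genes, from 32.4, 24.3 and 29.4 to 223, 113 and 95.2 CPM. Of 20 tested glucocorticoid-induced genes 7 rose and 0 fell (median 0.53). Fkbp5 (chromosome 17, 28399094 to 28517527) was at 0, 3.93 and 0.841 CPM in PBS stim and 39.5, 45.3 and 37.2 CPM in Cisplatin stim (log2 4.57 ± 0.46, adjusted p = 6.84e-07). Tsc22d3, the glucocorticoid-induced leucine zipper, was at 164, 243 and 218 against 661, 530.5 and 412 CPM. Cdkn1a stood at 0.876, 1.57 and 0.841 against 50.4, 11.7 and 38.97 CPM and was the 1 of 19 p53 targets called in astrocytes. With the covariate 3 of the 20 glucocorticoid genes rose, and without the 4 PBS libraries 5. Fabp7, a fatty acid binding protein of radial glia and astrocytes (chromosome 10, 57784881 to 57788450), fell from 208, 399 and 362 to 45.6, 97.05 and 154 CPM. The glutamate receptor Grm3 fell from 211, 232 and 248 to 66.7, 97.05 and 114 CPM, Them4 from 77.1, 126 and 86.7 to 20.4, 31.1 and 35.3 CPM and S100a10 from 70.1, 135 and 77.4 to 15.7, 40.1 and 44.4 CPM. In each of the 8 strongest genes the Cisplatin stim libraries lay outside the range of the PBS stim libraries, as they did in 226 of the 264 genes called in astrocytes. Tsc22d3 was not called with the ribosomal RNA-like covariate (adjusted p 0.0564).

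Cholesterol synthesis genes were lower in 4 and higher in 1 of 30 in astrocytes, where 1.22% of all genes tested fell and 1.38% rose. Hmgcs1 stood at 374, 437 and 438 CPM in PBS stim and 188, 207 and 281 CPM in Cisplatin stim, and Srebf1, the factor SREBP1 that drives fatty acid synthesis, at 241, 172 and 203 against 317, 388 and 268 CPM. The falls numbered 2 without Cisplatin stim 1, and with the covariate 9 of the 30 fell and 0 rose. Chaperones fell in 4 of 22, with Hsp90b1 at 447, 407 and 446 against 237, 267 and 291 CPM and the disulfide isomerase Pdia6 at 144, 148 and 141 against 64.7, 90.6 and 91.5 CPM. The chaperone count was 2 without PBS stim 1 and 2 without PBS stim 3. Aqp4, the water channel of astrocyte endfeet, fell from 875, 972 and 811 to 434, 499.5 and 679.7 CPM, Slc7a11, the cystine-glutamate exchanger, from 335, 318 and 317 to 149.7, 226 and 232 CPM. Mfsd2a, a lysophospholipid transporter, rose from 132, 108 and 100.1 to 496, 252 and 193 CPM. Gfap, the filament of reactive astrocytes, was 629, 374 and 498 against 428, 241 and 465 CPM (adjusted p = 0.536) and was not called. Of 11 tested genes of reactive astrocytes 2 rose (Fkbp5 and Serpina3n) and 1 fell (S100a10). The call of Srebf1 ended without PBS stim 2 or Cisplatin stim 2 (adjusted p 0.125 to 0.13), that of Slc7a11 without PBS stim 1, PBS stim 2, PBS stim 3 or Cisplatin stim 1 (adjusted p 0.0851 to 0.231), that of Serpina3n without PBS stim 1, PBS stim 3 or Cisplatin stim 1 (adjusted p 0.0708 to 0.319). Srebf1, Aqp4, Slc7a11 and Serpina3n were not called with the ribosomal RNA-like covariate (adjusted p 0.0744 to 0.596). Srebf1, Hsp90b1, Aqp4, Slc7a11 and Serpina3n were not called without the 4 PBS libraries (adjusted p 0.0557 to 0.522).

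Endothelial cells numbered 26, 110 and 166 in PBS stim and 39, 77 and 113 in Cisplatin stim, and 1.69% of their genes were higher and 0.835% lower in Cisplatin stim. Of 21 tested p53 targets 4 rose and 0 fell (median 0.43). Phlda3, a p53-induced inhibitor of Akt signalling (chromosome 1, 135766119 to 135769136), was at 10.4, 7.02 and 9.12 CPM in PBS stim and 6.68, 82.01 and 79.5 CPM in Cisplatin stim. The rise (log2 2.96 ± 0.40, adjusted p = 2.21e-04) was in the second batch and not in Cisplatin stim 1. Trp53inp1, a p53-induced nuclear protein, rose from 52, 56.2 and 57.8 to 127, 135 and 181 CPM (log2 1.48 ± 0.21, adjusted p = 3.08e-04). The death receptor Fas rose by 0.85 and Ccng1 by 1.38 on the log2 scale. Cdkn1a was already high in PBS stim endothelium (286, 632 and 705 CPM against 1189, 998 and 712 CPM, adjusted p = 0.0871) and was not called, nor was Bax (114, 133 and 131 against 114, 255 and 201 CPM, adjusted p = 0.0627). Ercc1, a subunit of the nuclease that unhooks platinum crosslinks, rose from 20.8, 19.3 and 18.2 to 93.5, 61.5 and 47.2 CPM, the 1 of 23 DNA repair genes called. The call of Fas ended without PBS stim 1, PBS stim 2, PBS stim 3, Cisplatin stim 1 or Cisplatin stim 2 (adjusted p 0.0589 to 0.122), that of Ccng1 without PBS stim 1, PBS stim 2, PBS stim 3, Cisplatin stim 1 or Cisplatin stim 2 (adjusted p 0.0656 to 0.211). Phlda3, Trp53inp1, Fas, Ccng1 and Ercc1 were not called with the ribosomal RNA-like covariate (adjusted p 0.337 to 0.784). Phlda3, Trp53inp1, Fas, Ccng1 and Ercc1 were not called without the 4 PBS libraries (adjusted p 0.184 to 0.717). The p53 list counted 2 without PBS stim 1, 2 or 3 or without Cisplatin stim 2, 0 with the covariate and 1 without the 4 PBS libraries.

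Of 9 tested endothelial activation genes 3 rose (Vwf, Icam1 and Angpt2) and 1 fell (Icam2), with a median log2 fold change of 0.59. Beside each list count of this paragraph stand the 1.69% of all genes tested in endothelium that rose and the 0.835% that fell. The number that rose was 1 without PBS stim 2, PBS stim 3, Cisplatin stim 2 or the 4 PBS libraries, and 0 with the covariate. Vwf, von Willebrand factor, stood at 67.6, 249 and 123 CPM in PBS stim and 361, 557 and 402 CPM in Cisplatin stim (log2 1.53 ± 0.22, adjusted p = 3.25e-04), and Icam1, the leukocyte adhesion molecule, at 78, 22.8 and 24.3 against 167, 137 and 73.3 CPM. Angpt2, a ligand that destabilises vessels, rose from 5.20, 8.78 and 6.08 to 83.5, 27.3 and 16.1 CPM, and Icam2, an adhesion molecule of resting endothelium, fell from 260.0, 262 and 222 to 170.4, 128 and 162 CPM. Adm, the vasodilator adrenomedullin, rose from 41.6, 45.6 and 21.3 to 237, 162 and 120.5 CPM, Serpine2 from 36.4, 38.6 and 42.6 to 63.5, 133 and 140.4 CPM and Slc2a1, the glucose transporter of the barrier, from 1680, 1499 and 1418 to 3801, 3068 and 2545 CPM. The groups overlapped in Icam1 and in none of the other 6. Of 18 barrier genes 1 rose (Slc2a1) and 0 fell. Interferon-induced genes fell in 5 of 33 and rose in 0 (median −0.57). Gbp7 was at 229, 237 and 286 against 86.8, 126 and 175 CPM and Slfn5 at 400.4, 411 and 471 against 174, 238 and 311 CPM. B2m, the light chain of MHC class I, fell from 754, 1093 and 1050 to 388, 523 and 762 CPM, 1 of 2 calls among 15 class I genes, both lower. The interferon count was 2 without PBS stim 2, and 0 without PBS stim 3, without Cisplatin stim 2, with the covariate and without the 4 PBS libraries. Ptn, the growth factor pleiotrophin, and Smarca2, a chromatin remodelling ATPase, fell from 1139, 1748 and 1582 to 571, 772 and 956 CPM and from 374, 293 and 293 to 174, 154 and 164 CPM. The call of Icam1 ended without PBS stim 2, PBS stim 3 or Cisplatin stim 2 (adjusted p 0.0556 to 0.0941), that of Angpt2 without PBS stim 1, PBS stim 2, PBS stim 3, Cisplatin stim 1 or Cisplatin stim 2 (adjusted p 0.063 to 0.158), that of Icam2 without PBS stim 1, PBS stim 2, PBS stim 3 or Cisplatin stim 2 (adjusted p 0.0524 to 0.154). The call of Gbp7 ended without PBS stim 3 or Cisplatin stim 2 (adjusted p 0.052 to 0.0671), that of Slfn5 without PBS stim 3 or Cisplatin stim 2 (adjusted p 0.0529 to 0.0534), that of B2m without Cisplatin stim 2 (adjusted p 0.0568). Vwf, Icam1, Angpt2, Icam2, Adm, Serpine2, Slc2a1, Gbp7, Slfn5, B2m, Ptn and Smarca2 were not called with the ribosomal RNA-like covariate (adjusted p 0.0803 to 0.975). Icam1, Angpt2, Icam2, Serpine2, Gbp7, Slfn5, B2m and Ptn were not called without the 4 PBS libraries (adjusted p 0.166 to 0.741). Summed haemoglobin markers of red cells in the endothelial counts were 15.2, 55.8 and 1.54 CPM in PBS stim and 39.6, 1288 and 80.2 CPM in Cisplatin stim, and their part was not tested.

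Pericytes, the contractile cells around capillaries, were tested with PBS stim 2 and 3 alone, because PBS stim 1 held 5 cells, and 0.334% of their genes were higher and 0.121% lower. Spp1, the matrix protein osteopontin (chromosome 5, 104435118 to 104441050), was at 29.5 and 43.99 CPM in these PBS stim libraries and at 2227, 675 and 396 CPM in Cisplatin stim 1, 2 and 3 (log2 3.83 ± 0.40, adjusted p = 9.16e-06). Trp53inp1 rose from 29.5 and 41.5 to 83.5, 137 and 155 CPM and Phlda3 from 0 and 7.33 to 27.8, 92.5 and 65.6 CPM, or 3 against 52 UMIs (ratio 14.4, 95% exact interval 4.68 to 72.3, counting error only). They were the 2 of 20 p53 targets that rose, and 0 fell. Vwf rose from 63.96 and 115 to 223, 394 and 253 CPM and Igfbp3, which binds insulin-like growth factors, from 34.4 and 9.77 to 195, 116 and 65.6 CPM. The call of Trp53inp1 ended without PBS stim 3 (adjusted p 0.0736), that of Phlda3 without PBS stim 2, PBS stim 3 or Cisplatin stim 2 (adjusted p 0.0894 to 0.203), that of Vwf without Cisplatin stim 2 (adjusted p 0.058). The call of Igfbp3 ended without PBS stim 3 or Cisplatin stim 2 (adjusted p 0.169 to 0.579). Trp53inp1, Phlda3, Vwf and Igfbp3 were not called with the ribosomal RNA-like covariate (adjusted p 0.248 to 0.539). Without PBS stim 3 none of the 20 p53 targets was called, nor with the covariate.

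Neurons numbered 69, 78 and 88 in PBS stim and 192, 51 and 39 in Cisplatin stim, and their makeup differed between the libraries. The authors' cluster 10 held 47, 18 and 24 of the neurons of PBS stim 1, 2 and 3 and 150, 41 and 20 of those of Cisplatin stim 1, 2 and 3. The median mitochondrial share of neurons was 36.1%, 9.37% and 5.51% in PBS stim and 40.9%, 29.8% and 19.2% in Cisplatin stim. The 8 neuronal markers summed to 7791 to 12970 CPM in PBS stim and 3749 to 5718 CPM in Cisplatin stim, with 0 of 7 called (Snap25 756, 513 and 518 against 606, 448 and 383 CPM, adjusted p = 0.583). Summed astrocyte markers in the same neurons were 1908 to 2192 CPM in PBS stim and 2327 to 8895 CPM in Cisplatin stim, with 3 of 8 called higher (Slc1a2, Aldoc and Slc1a3). Oligodendrocyte markers summed to 659 to 4635 and 3124 to 5080 CPM, with 2 of 3 tested called higher, Mobp among them. None of these markers was at 0, and their part in the neuronal results was not tested.

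Beside those values, 1.97% of neuronal genes were higher and 0.305% lower in Cisplatin stim. Mt2 stood at 71.6, 83.1 and 108 CPM in PBS stim and 258, 430.5 and 390.3 CPM in Cisplatin stim (log2 2.04 ± 0.28, adjusted p = 5.16e-04) and Mt1 at 617, 552 and 589.6 against 1835, 3094 and 1686 CPM, without overlap. With Tsc22d3 they were the 3 of 13 glucocorticoid-induced genes that rose. Npas4, a transcription factor induced by neuronal activity, fell from 75.6, 53.8 and 111 to 23.7, 17.9 and 7.37 CPM (log2 −2.22 ± 0.47, adjusted p = 0.0193), the 1 of 18 immediate early genes called, and Plk2, a kinase also induced by activity, from 155, 119.8 and 106 to 63.1, 35.9 and 29.5 CPM. In both genes the highest Cisplatin stim library was below the lowest PBS stim library. Cytosolic ribosomal protein genes rose in 12 of 55 (median 1.10) and nuclear oxidative phosphorylation genes in 13 of 49 (median 0.95), for example Rplp0 from 382, 244 and 281 to 688, 870.0 and 788 CPM and Cox6a1 from 672, 264 and 286 to 1034, 2359 and 1060 CPM. Cdkn1a was not among the genes tested in neurons; Fkbp5 was (51.7, 26.9 and 37 against 55.2, 35.9 and 14.7 CPM, adjusted p = 0.976). The call of Mt1 ended without PBS stim 2 or PBS stim 3 (adjusted p 0.101 to 0.115), that of Npas4 without PBS stim 2, PBS stim 3, Cisplatin stim 1 or Cisplatin stim 2 (adjusted p 0.0576 to 0.151), that of Plk2 without PBS stim 2, PBS stim 3, Cisplatin stim 2 or Cisplatin stim 3 (adjusted p 0.058 to 0.199). The call of Rplp0 ended without PBS stim 2, PBS stim 3 or Cisplatin stim 2 (adjusted p 0.0796 to 0.199), that of Cox6a1 without PBS stim 2, PBS stim 3 or Cisplatin stim 2 (adjusted p 0.144 to 0.241). Mt2, Mt1, Npas4, Plk2, Rplp0 and Cox6a1 were not called with the ribosomal RNA-like covariate (adjusted p 0.222 to 0.681). Mt2, Mt1, Npas4, Plk2, Rplp0 and Cox6a1 were not called without the 4 PBS libraries (adjusted p 1.0). The 149 neuronal calls became 2 without PBS stim 2, 3 without PBS stim 3, 6 without Cisplatin stim 2, 511 without PBS stim 1, and 0 with the covariate or without the 4 PBS libraries, and both lists then had 0 calls without PBS stim 2, PBS stim 3 or Cisplatin stim 2.

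In OPCs, where 0.495% of genes were higher and 0.221% lower, Mt1 rose from 288, 413 and 459 CPM in PBS stim to 832, 1061 and 703 CPM in Cisplatin stim (log2 1.16 ± 0.16, adjusted p = 1.83e-05). Cdkn1a rose from 0, 24.8 and 20.8 to 66.9, 106 and 68.9 CPM and Fkbp5 from 9.59, 26.6 and 34.7 to 62.1, 118 and 77.2 CPM, the 3 of 14 glucocorticoid-induced genes called. Aldoc, an aldolase that marks astrocytes, rose from 221, 188 and 222 to 669, 725 and 529 CPM, while the summed 8 astrocyte markers were 1321 to 1802 CPM in PBS stim OPCs and 1604 to 2041 CPM in Cisplatin stim OPCs. Hsp90b1 fell from 1074, 479.8 and 514 to 707, 295 and 298 CPM, with the first-batch library of each group highest. The call of Cdkn1a ended without PBS stim 2, PBS stim 3, Cisplatin stim 1 or Cisplatin stim 2 (adjusted p 0.0509 to 0.09), that of Fkbp5 without PBS stim 1, PBS stim 2 or Cisplatin stim 2 (adjusted p 0.0615 to 0.0998), that of Hsp90b1 without PBS stim 1, PBS stim 3, Cisplatin stim 2 or Cisplatin stim 3 (adjusted p 0.0592 to 0.133). Fkbp5 and Hsp90b1 were not called with the ribosomal RNA-like covariate (adjusted p 0.246 to 0.586). Fkbp5 and Hsp90b1 were not called without the 4 PBS libraries (adjusted p 0.156 to 0.234). Choroid plexus cells had 0.151% of genes higher and 0.0252% lower. Fdft1, squalene synthase, rose from 23.4, 48.1 and 40.5 to 60.5, 90.1 and 99.5 CPM (adjusted p = 0.0348), and Cdkn1a (7.82, 17.1 and 13.4 against 34.99, 43.2 and 38.5 CPM, adjusted p = 0.0629) was above its PBS stim range without passing the test. The call of Fdft1 ended without PBS stim 2 or 3 or Cisplatin stim 2 or 3 (adjusted p 0.148 to 0.642) and with the replicate number as a block (0.105). The 8 choroid plexus markers summed to 42340 CPM in the 18 cells of PBS stim 1 and to 137500 to 203900 CPM in the other 5 libraries.

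Rbm3 and Cirbp, RNA-binding proteins known for their induction by mild cold, were the genes called higher in the most cell types, 7 of the 9 tested: astrocytes, choroid plexus, endothelium, microglia, OPCs, oligodendrocytes and pericytes. In oligodendrocytes Rbm3 (chromosome X, 8138975 to 8145880) stood at 52.5, 122 and 91.02 CPM in PBS stim and 270.4, 415 and 408 CPM in Cisplatin stim (log2 2.08 ± 0.29, adjusted p = 6.37e-05) and Cirbp at 82.5, 124 and 114 against 283, 278 and 285 CPM. Over the 7 types Rbm3 rose by 0.95 to 2.08 and Cirbp by 1.20 to 1.61 on the log2 scale, and in each of them every Cisplatin stim library was over every PBS stim library. The same held without a call in neurons (Rbm3 131, 129.5 and 86.3 against 205, 269 and 214 CPM, adjusted p = 0.0704; Cirbp adjusted p = 0.0831) and immune cells (Rbm3 83.03, 204 and 262 against 1048, 524 and 592 CPM, adjusted p = 0.347; Cirbp adjusted p = 0.359). In the choroid plexus both calls ended with the replicate number as a block (adjusted p 0.0855 each). Leaving out single libraries ended the call there of Rbm3 without PBS stim 2, PBS stim 3, Cisplatin stim 2 or Cisplatin stim 3 (adjusted p 0.0814 to 0.48), and that of Cirbp without PBS stim 2, PBS stim 3 or Cisplatin stim 2 (adjusted p 0.212 to 0.382). In pericytes it ended that of Rbm3 without PBS stim 2, PBS stim 3, Cisplatin stim 1, Cisplatin stim 2 or Cisplatin stim 3 (adjusted p 0.0698 to 0.45), and that of Cirbp without PBS stim 2, PBS stim 3 or Cisplatin stim 2 (adjusted p 0.0881 to 0.442). With the covariate the adjusted p of Rbm3 was 0.206 in endothelium, 0.051 in the choroid plexus and 0.598 in pericytes. That of Cirbp was 0.136 in OPCs, 0.302 in microglia, 0.672 in endothelium, 0.0989 in the choroid plexus and 0.76 in pericytes. Without the 4 PBS libraries Rbm3 was at 0.0684 in microglia, 0.0501 in oligodendrocytes and 0.0623 in the choroid plexus. Cirbp was at 0.0701 in OPCs and 0.369, 0.361 and 0.207 in endothelium, microglia and choroid plexus.

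Sult1a1 was called higher in 5 types, at 26, 50.9 and 44.1 against 237, 222 and 165 CPM in endothelium and 36.7, 46.8 and 46.98 against 118, 137 and 94.7 CPM in microglia. Eno1b was higher in 6 types, yet 89.0% of its 31-base words occur in other genes, chiefly Eno1, so its counts are uncertain. In microglia it stood at 6.79, 4.04 and 5.53 against 11.4, 23.1 and 57.03 CPM. Lars2 and mt-Atp8 were lower in 6 types each. Lars2, whose reads share the ribosomal RNA-like signal, was at 292, 1561 and 1000 CPM in PBS stim oligodendrocytes and 236, 276 and 315 CPM in Cisplatin stim ones, and mt-Atp8 at 458, 548 and 1096 against 528, 209.7 and 243 CPM. Without the 4 PBS libraries mt-Atp8 pointed up, at 0.28 in oligodendrocytes and 0.49 in microglia, and it was not called with the covariate. Lars2 was not called with it either, but its own counts are part of the covariate, so that fit cannot test Lars2. In microglia mt-Atp8 was not called with the replicate number as a block (adjusted p = 0.0539). Cdkn1a was called in oligodendrocytes, astrocytes and OPCs of the 8 types in which it was tested. In microglia it was 179, 124 and 112 against 327, 65.4 and 80.2 CPM (adjusted p = 0.847), with the first-batch library highest in each group, and in pericytes 571 and 665 against 937, 1121 and 849 CPM (adjusted p = 0.323). Whether its change differed between cell types was not tested.

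**Figure D4:**
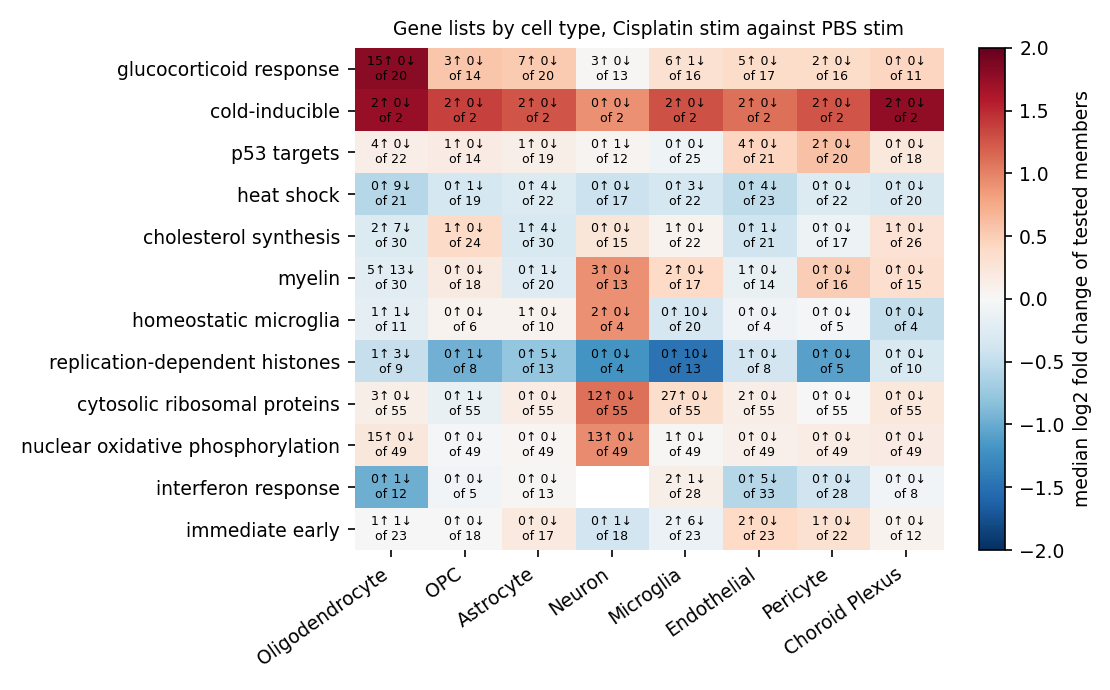
Median log2 fold change (colour) of the tested members of 12 gene lists in 8 cell types, with the numbers of members called higher (up arrow) and lower (down arrow) and the number tested; the white cell had too few tested members. The glucocorticoid list in oligodendrocytes has 15 of 20 members higher, homeostatic microglial genes 10 of 20 lower in microglia, and both cold-inducible genes are higher in 7 of the 8 types drawn.

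Whether the drug difference itself changed with stimulation was tested by subtracting the difference without stimulation (Cisplatin nonstim against PBS nonstim) from that with it; the 2 differences share no library. Of 69488 tests 17 were called (0.0245%), 11 upward and 6 downward, and 3394 had an unadjusted p under 0.05. The called share was 0.0892% in oligodendrocytes, 0.0303% in microglia and in pericytes, 0.0152% in neurons, 0.013% in OPCs, 0.00984% in astrocytes and 0.0% in the other 3 types. The drug comparison without stimulation made 1142 calls. Of these 678 genes were called in both, 25.1% of the calls under stimulation and 59.4% of those without it, and 675 had the same sign. Of the 2703 genes called under stimulation 2536 had the same sign without it and 2566 a larger change with it, which the choice of genes by the stimulated value itself favours. Plin4 in oligodendrocytes rose by more with stimulation. It stood at 12.1, 11.97 and 4.11 CPM in PBS nonstim and 54.5, 32.8 and 24.6 CPM in Cisplatin nonstim, against 5.36, 4.54 and 4.57 against 172, 98.7 and 84.3 CPM with stimulation (difference of log2 fold changes 2.50 ± 0.40, adjusted p = 0.0138). Apod went from 3119, 2648 and 2986 to 4899, 3765 and 4389 CPM without stimulation (difference 0.83 ± 0.15, adjusted p = 0.0246), compared with 2700, 2661 and 2425 to 6927, 7282 and 6447 CPM with it. Gstp1, a glutathione transferase that shares 38.5% of its words with Gstp2, had changes of opposite sign in oligodendrocytes: 552, 425 and 329.7 against 924, 706 and 741 CPM without stimulation and 1140, 417 and 581 against 757, 319.6 and 212 CPM with it (difference −1.66 ± 0.28, adjusted p = 0.0163). For Cdkn1a in oligodendrocytes the log2 fold change was 3.45 without and 6.93 with stimulation, a difference of 3.48 ± 0.96 that passed no threshold (adjusted p = 0.26). Ttr, the thyroxine carrier secreted by the choroid plexus, was called in pericytes, OPCs and astrocytes. In OPCs it lay at 14.5, 95.4 and 149 CPM in PBS nonstim, 512, 6269 and 227 CPM in Cisplatin nonstim, 12.8, 173 and 1567 CPM in PBS stim and 143, 448 and 397 CPM in Cisplatin stim. Its 2 highest values were in the libraries with the largest choroid plexus share of their group, Cisplatin nonstim 2 (38.0% of cells) and PBS stim 3 (24.1%). Across groups the order differed: Cisplatin stim 2, with a larger share (29.7%) than PBS stim 3, had 448 CPM. Cisplatin nonstim 1 and 3, with shares of 10.8% and 11.4%, had 512 and 227 CPM. The part of the choroid plexus share in the result was not tested. Without PBS stim 3 the adjusted p of the Ttr difference was 0.142 in pericytes, 0.536 in OPCs and 0.775 in astrocytes, and the difference was −3.20, −3.20 and −1.99. For Plin4, Apod and Gstp1 in oligodendrocytes the difference was then 2.58, 0.81 and −1.59, with an adjusted p of 0.0703 each. Without the 4 PBS libraries these 3 differences were 2.81 (adjusted p = 0.169), 0.88 (0.302) and −2.09 (0.125), and that of Ttr was −2.53 in OPCs (0.897) and −1.42 in astrocytes (0.999).

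**Figure D5:**
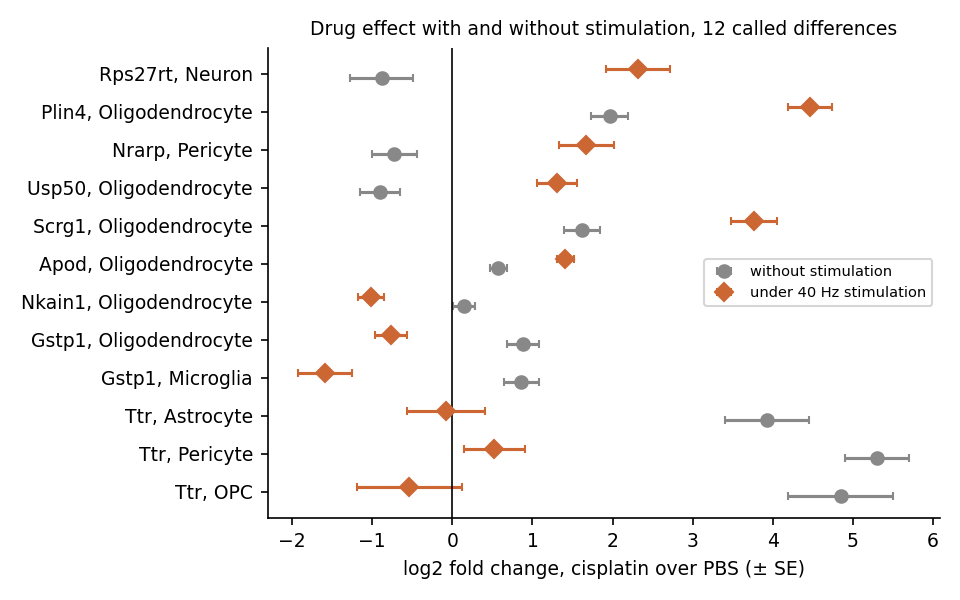
Log2 fold change of cisplatin over PBS (x axis, ± SE) without stimulation (grey circles) and under 40 Hz stimulation (orange diamonds) for 12 gene and cell type pairs in which the difference of those changes was called. Plin4, Scrg1 and Apod lie further right with stimulation, Gstp1 changes sign, and Ttr is far to the right only without stimulation.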

How the data were processed

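The authors deposited raw UMI counts per cell and gene, with each cell's library, type, cluster and a doublet score. All deposited cells were used, and no doublet caller was run. The submitters' processing notes list Cell Ranger 5.0.0, Scanpy and the build mm10 and give them no roles. Counts were summed per library and type, keeping sums of at least 10 cells. edgeR 4.0.16 (R 4.3.3) fitted all 12 libraries by its quasi-likelihood test, with TMM scaling, filterByExpr, and terms for 4 groups and batch (replicate 1 against 2 and 3); p-values were adjusted within a type (Benjamini-Hochberg) and genes called under 0.05. DESeq2 1.42.0 was an alternative. The fits were tested on simulated data. The members and the 30 gene lists were chosen with earlier results of these data known. By rule, genes named were the 4 strongest per direction in the 4 types with most calls, all calls of types with under 10, the 6 genes called in most types, up to 3 members per list, Cdkn1a, Fkbp5, Plin4, Phlda3, Rbm3 and Ttr, and up to 4 interaction calls per direction. Predicted and clone-named genes were left out of all but the lists. Some genes the rules select are not reported here. Other named genes were chosen after their values were seen.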

Additional observations from a re-analysis of the deposited data

Results flagged for a closer look

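The drug difference differed with stimulation, by the edgeR interaction test, in 17 gene and cell type pairs, of which 12 are given here (difference of log2 fold changes, with stimulation minus without). In oligodendrocytes the difference was positive for Plin4 (2.50 ± 0.40, adjusted p = 0.0138), Usp50 (2.21 ± 0.35, adjusted p = 0.0138), Scrg1 (2.15 ± 0.40, adjusted p = 0.0365) and Apod (0.83 ± 0.15, adjusted p = 0.0246). Usp50, lower with cisplatin without stimulation and higher with it, stood at 9.67, 26.4 and 17.4 CPM in PBS nonstim, 6.41, 8.84 and 14.03 CPM in Cisplatin nonstim, 5.36, 16.1 and 14.1 CPM in PBS stim and 10.1, 36.04 and 43.5 CPM in Cisplatin stim. It was negative for Gstp1 (−1.66 ± 0.28, adjusted p = 0.0163) and Nkain1 (−1.16 ± 0.21, adjusted p = 0.0316) in oligodendrocytes and for Gstp1 in microglia (−2.45 ± 0.40, adjusted p = 0.0168).

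In neurons Rps27rt, which shares 92.7% of its 31-base words with other genes, gave 3.20 ± 0.55, adjusted p = 0.0318, and in pericytes Nrarp, a target of Notch signalling, gave 2.39 ± 0.44, adjusted p = 0.0453. Ttr was flagged in pericytes (−4.78 ± 0.55, adjusted p = 5.57e-05), OPCs (−5.38 ± 0.92, adjusted p = 0.00781) and astrocytes (−4.01 ± 0.70, adjusted p = 0.0378). None of the 12 was called without PBS stim 3, where the adjusted p lay between 0.0703 and 0.995, and none without the batch term. Without the 4 PBS libraries 10 of the 12 could be fitted, and of these Gstp1 in microglia was called (adjusted p = 0.021) and the other 9 were not (0.125 to 0.999). DESeq2 did not call Ttr in pericytes (0.233), OPCs (0.999) or astrocytes (0.9999), or Nrarp (0.26). With the replicate number as a block Ttr in astrocytes was not called (0.205) and the other 11 were. Scrg1 (0.145) and Nrarp (0.0822) were not called with cells over 10% mitochondrial left out. In the second batch alone Nkain1 (0.0755), Scrg1 (0.090) and Nrarp (0.0806) were not called. The covariate ended the call of Nrarp (0.0753), and the minimum of 30 cells that of Ttr in OPCs (0.0793). Leaving out other single libraries also ended some of the calls.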

How the results depend on the processing

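Of 207 called gene values named or examined, 129 kept the call whichever of the 6 libraries was left out, 201 with RLE size factors and 91 with the ribosomal RNA-like covariate. Without the 4 PBS libraries 77 of 195 kept it, a fit that assumes PBS stim 1 varies like the other groups. The counts of 2703 calls over all types, 17 differences of drug effects and 2 share calls changed as listed, with the type in parentheses. The cause was not tested, and settings not listed stayed within 1.5 times or were not counted. The 17 differences were not counted without the batch term, with at least 30 cells, without the 4 PBS libraries or in only the 6 stimulated libraries. Share calls were counted only for the second batch, the replicate block, the mitochondrial filter, cells other than choroid plexus and single libraries left out. The replicate block left 2470 calls in all; same-numbered libraries correlated with a median r over types of 0.176, 0.0612 and 0.0674. All 3 were over 0.1 in microglia alone (0.1996, 0.108 and 0.144; 0.0269 within the second batch), where the block left 469 of 519 calls and ended, of the values named, those of Trem2 (adjusted p = 0.0551) and mt-Atp8 (0.0539). In the other types the numbers were not taken as pairs. Neurons could not be fitted without cells over 10% mitochondrial UMIs. Whether cell number limits the calls of small types was not tested. Second batch alone gave 5819 (all types), 2374 (Choroid Plexus), 2 (Immune), 461 (Neuron), 54 (Pericyte), 69 (the difference of drug effects) and 0 (the share calls). No batch term gave 1160 (all types), 37 (Astrocyte), 4 (Choroid Plexus), 62 (Endothelial), 122 (Microglia), 3 (Neuron), 16 (OPC) and 893 (Oligodendrocyte). Ribosomal RNA-like share as covariate gave 856 (all types), 64 (Astrocyte), 50 (Choroid Plexus), 3 (Endothelial), 9 (Immune), 38 (Microglia), 0 (Neuron), 30 (OPC), 661 (Oligodendrocyte), 1 (Pericyte) and 44 (the difference of drug effects). Leaving out 4 PBS libraries gave 615 (all types), 66 (Astrocyte), 156 (Choroid Plexus), 43 (Endothelial), 15 (Microglia), 0 (Neuron), 36 (OPC) and 299 (Oligodendrocyte). At least 30 cells gave 4899 (all types), 2172 (Choroid Plexus), 1 (Immune), 22 (OPC) and 166 (Pericyte). No filter on low counts gave 426 (Astrocyte), 248 (Choroid Plexus), 382 (Endothelial), 41 (Immune), 274 (Neuron), 95 (OPC), 112 (Pericyte) and 320 (the difference of drug effects). Only the 6 stimulated libraries gave 173 (Astrocyte) and 46 (Pericyte). RLE size factors gave 3 (Choroid Plexus). DESeq2 gave 94 (Choroid Plexus), 12 (Immune) and 289 (Neuron). Replicate block gave 0 (Choroid Plexus) and 76 (Neuron). Cells over 10% mitochondrial left out gave 117 (Choroid Plexus) and 4 (the share calls). Share of cells other than choroid plexus gave 1 (the share calls). Leaving out single libraries gave 1393 to 2607 (all types), 142 to 245 (Astrocyte), 0 to 109 (Choroid Plexus), 60 to 181 (Endothelial), 0 to 1 (Immune), 156 to 527 (Microglia), 2 to 511 (Neuron), 22 to 49 (OPC), 924 to 1237 (Oligodendrocyte), 7 to 31 (Pericyte), 3 to 41 (the difference of drug effects) and 0 to 2 (the share calls). The log2 share ratio of progenitors missed the threshold at −2.22 (second batch alone) and ranged over −2.94 to −1.82 with single libraries left out. The log2 share ratio of microglia missed the threshold at −0.63 (second batch alone) and −0.61 (share of cells other than choroid plexus) and ranged over −0.82 to −0.56 with single libraries left out. Log2 fold changes that turned sign were as follows. Eno1b in astrocytes had −0.24 (without 4 PBS libraries). Phlda3 in astrocytes had −0.18 (second batch alone). Ttr in astrocytes had 0.22 (DESeq2), 0.095 (only the 6 stimulated libraries), 0.14 (replicate block), 0.64 (mitochondrial filter), 0.40 (covariate), 3.74 (without 4 PBS libraries) and −0.64 to 1.84 (single libraries left out). mt-Atp8 in astrocytes had 0.030 (without 4 PBS libraries). mt-Atp8 in endothelial cells had 0.17 (without 4 PBS libraries). Cdkn1a in microglia had 0.056 (no batch term), 0.42 (covariate), 0.51 (without 4 PBS libraries) and −0.69 to 0.12 (single libraries left out). Hist1h4d in microglia had 0.41 (without 4 PBS libraries). Hist1h4h in microglia had 2.03 (without 4 PBS libraries). Ifi27l2a in microglia had 0.041 (without 4 PBS libraries). Lars2 in microglia had 0.014 (without 4 PBS libraries). mt-Atp8 in microglia had 0.49 (without 4 PBS libraries). Fkbp5 in neurons had 0.0033 (RLE size factors), 0.13 (no batch term) and −0.40 to 0.19 (single libraries left out). Phlda3 in neurons had −0.54 to 1.30 (single libraries left out). Phlda3 in OPCs had 0.051 (covariate), 0.073 (without 4 PBS libraries) and −0.32 to 0.071 (single libraries left out). Ttr in OPCs had 0.072 (DESeq2), 2.79 (without 4 PBS libraries) and −1.16 to 1.58 (single libraries left out). mt-Atp8 in OPCs had 0.13 (without 4 PBS libraries). mt-Atp8 in oligodendrocytes had 0.28 (without 4 PBS libraries). Lars2 in pericytes had 0.074 (covariate, of which its own counts are part). Ttr in pericytes had −1.27 (covariate), −0.24 (at least 30 cells) and −0.083 to 2.10 (single libraries left out).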
